A study of Mus musculus with 15 samples.

Results

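The genes described here encode the collagen chains, the lysyl oxidases that crosslink them and the prolyl 4-hydroxylases that stabilise them, as measured in inflamed and polypoid colon tissue of mice with colitis-associated carcinogenesis. They were chosen by name, as every gene with a probe on the array whose gene name was a collagen chain (Col, a number, a, a number), Lox or Loxl1 to Loxl4, or P4ha1 to P4ha3. This gave 95 of 41174 probes, which carried 48 of 27390 gene names. One of these names, Col4a3bp (4 probes), belongs to a ceramide transporter, now called Cert1, and matches only in spelling. The other 47 names were 11 fibrillar collagens, 8 basement membrane collagens, 20 other collagens, 5 lysyl oxidases and 3 prolyl 4-hydroxylases.

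Swiss Webster females, 7 weeks old at the start, received the colon carcinogen AOM (azoxymethane, 7.4 mg/kg, intraperitoneally). From 9 weeks of age they went through 3 cycles of 4% DSS (dextran sulfate sodium, which injures the colon lining), each with 7 days of DSS and 21 days of water, and they were killed at 18 weeks. The study compared 5-ASA (5-aminosalicylic acid, an anti-inflammatory drug, 75 mg/kg) with vehicle, so the groups were untreated inflamed, 5-ASA inflamed, untreated polypoid and 5-ASA polypoid tissue, with 2 mice in each and no mouse in more than 1 group. AOM and DSS were common to all groups, and no uninjured colon is among the groups. Tissue was taken by laser capture microdissection from 5 µm frozen sections, and its RNA went through 2 rounds of amplification before hybridisation to dual-colour Agilent arrays against a universal mouse reference RNA. Each value below is the log2 ratio of sample over reference for 1 mouse, so that a difference of 1 is a doubling, and a level can be compared between mice but not between genes.

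Collagens are triple helices of chains. Fibrillar collagens form the cables of the stroma, which fibroblasts make. Type IV collagen forms the sheet on which epithelium and vessels rest. Type XVII ties epithelial cells to that sheet, and type VII forms the anchoring fibrils beneath it. Prolyl 4-hydroxylases modify the chains inside the cell so that the helix holds, and lysyl oxidases join finished molecules to each other outside it. In the colon, most of this matrix comes from stromal cells, while type XVII collagen is made by epithelial cells.

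The 15 arrays had a median sample intensity of 148.6 to 257.2 scanner units over a median local background of 41 to 63, and 57.3% to 90.8% of spots were well above background in the sample channel, the lowest on the single array of 5-ASA inflamed replicate 2. The arrays were scanned in 4 sessions by their file headers. Session 1 held replicate 1 of both inflamed groups, session 2 replicate 1 of both polypoid groups, session 3 the second replicates of untreated inflamed, untreated polypoid and 5-ASA polypoid tissue, and session 4 only 5-ASA inflamed replicate 2. The 2 mice of each group were therefore scanned apart, and the spread between them, against which p-values are set, also holds any difference between sessions. Sessions 1 and 4 held only inflamed mice and session 2 only polypoid mice. The tissue difference therefore also holds part of any difference between sessions. Across genes, untreated polypoid replicate 1 correlated at 0.88 to 0.89 with 3 of the inflamed mice and at 0.81 with untreated inflamed replicate 2. With polypoid mice it correlated at 0.90 (5-ASA replicate 1, of its session), 0.87 (its group mate) and 0.86 (5-ASA replicate 2). In captured tissue, fewer cells of a type and less RNA per cell cannot be told apart. Marker lists of the cells that make collagen and of other cells were read beside the members. The mean of 12 smooth muscle markers was 0.82 to 2.60 in the inflamed mice and 0.36 to 0.80 in the polypoid mice, and 4 of the 12 fell (Lmod1 -2.1, Cnn1 -2, Tagln -1.72, Myl9 -1.55). Of these 12 differences 11 were negative (median -1.23), with 7 at an unadjusted limma p under 0.05, against 23.2% of all genes. The mean of 12 fibroblast markers was 0.19 to 0.55 in inflamed and -0.37 to 0.29 in polypoid mice, and 1 of them, Dpep1, fell (-2). Of the 12 fibroblast differences 9 were negative (median -0.55), with 6 at such a p. The epithelial list of 10 genes lay between 2.71 and 3.47 in all mice, with 0 of 10 called by limma and 4 at an unadjusted p under 0.05. The endothelial list of 10 lay at 1.04 to 1.55 in inflamed and 0.87 to 1.40 in polypoid mice, with 0 called and 1 at an unadjusted p under 0.05. Of 11 leukocyte markers 2 rose, the neutrophil genes S100a8 (4.47) and S100a9 (4.32). The mean of that list, which includes these 2 genes, was 0.84 to 1.13 in inflamed and 1.32 to 1.88 in polypoid mice. Its median difference was -0.09, and 8 of the 11 differences were negative. Of 7 chondrocyte and bone markers 1 rose, Sox9 (1.69), which colon epithelium also expresses, and the list mean was 0.06 to 0.39 and 0.31 to 0.76. The part of these lists in the collagen results was not tested.

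The sample channel exceeded its background clearly, by the scanner software's own test, on all 15 arrays for 47 of the 95 probes and on no array for 4. The rule for testing was such signal on every array of at least 1 group. By that rule 69 probes and 43 of the 48 gene names were tested, among 21303 genes in all. All 11 fibrillar collagens, all 8 basement membrane collagens and all 5 lysyl oxidases passed, as did 16 of 20 other collagens and 2 of 3 prolyl 4-hydroxylases. The names that did not pass were the hypertrophic cartilage collagen Col10a1 (above background on 5 of 15 arrays), the cartilage collagens Col9a1 (8) and Col9a3 (10), Col8a2 (8), a collagen of the corneal endothelium, and P4ha3 (6). Each gene is represented by its brightest probe. For Col1a1 the reference channel of that probe was saturated on all 15 arrays and for Col1a2 on 9 of 15, which limits their ratios.

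The promoters of 4 genes are shown: those of the 2 members called over both arms (Col17a1 and Col7a1) and those of a pair of type IV genes that lie head to head (Col4a1 and Col4a2). Each is the RefSeq window on GRCm38.p6 from 250 bases before to 50 after the annotated start, written 5′ to 3′ on the gene's strand, and capitals mark matches on either strand to any of the motifs searched: the CCAAT box, the GC box GGGCGG, the AP-1 motif TGANTCA, the TCF/LEF motif CTTTGAT and the TATA box TATAAA. No motif shares a match with another in these windows. The windows are chr19:47691993-47692292 (minus strand) for Col17a1, chr9:108953336-108953635 (plus) for Col7a1, chr8:11312777-11313076 (minus) for Col4a1 and chr8:11312555-11312854 (plus) for Col4a2.
Col17a1: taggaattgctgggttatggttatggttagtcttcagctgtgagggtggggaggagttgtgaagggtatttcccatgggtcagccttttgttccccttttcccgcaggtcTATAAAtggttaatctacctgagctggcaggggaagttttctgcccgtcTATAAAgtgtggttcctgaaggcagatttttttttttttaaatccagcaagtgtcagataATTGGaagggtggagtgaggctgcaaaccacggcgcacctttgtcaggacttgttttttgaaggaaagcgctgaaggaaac
Col7a1: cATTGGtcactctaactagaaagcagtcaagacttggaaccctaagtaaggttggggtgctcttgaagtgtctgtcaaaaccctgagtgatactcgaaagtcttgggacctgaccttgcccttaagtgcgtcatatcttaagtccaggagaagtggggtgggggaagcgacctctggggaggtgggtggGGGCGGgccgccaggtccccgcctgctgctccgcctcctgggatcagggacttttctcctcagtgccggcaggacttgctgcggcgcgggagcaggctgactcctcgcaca
Col4a1: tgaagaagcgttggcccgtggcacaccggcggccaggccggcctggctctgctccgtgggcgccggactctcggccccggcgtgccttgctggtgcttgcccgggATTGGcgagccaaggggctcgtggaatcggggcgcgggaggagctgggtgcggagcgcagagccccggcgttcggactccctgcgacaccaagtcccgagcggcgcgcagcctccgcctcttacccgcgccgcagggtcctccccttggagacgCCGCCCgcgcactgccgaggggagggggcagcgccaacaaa
Col4a2: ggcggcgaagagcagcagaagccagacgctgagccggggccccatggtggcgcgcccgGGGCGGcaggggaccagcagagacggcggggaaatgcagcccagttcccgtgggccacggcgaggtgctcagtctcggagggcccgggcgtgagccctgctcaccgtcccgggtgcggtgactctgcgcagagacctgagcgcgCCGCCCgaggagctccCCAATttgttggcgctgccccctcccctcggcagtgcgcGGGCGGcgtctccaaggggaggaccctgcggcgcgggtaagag

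The Col17a1 window held TATAAA 2 times, at positions -140 and -91 from the start, and CCAAT 1 time on the opposite strand. The Col7a1 window held 1 CCAAT and 1 GGGCGG. The Col4a1 and Col4a2 windows overlap by 78 bases on opposite strands, with annotated starts 21 bases apart, and both held CCAAT and GGGCGG. A window was found for 31 of the 43 members tested. Among these, the GC box was in 21 (35.7% of all 32851 windows have it), the CCAAT box in 11 (37.4%), the TATA box in 5 (13.6%), the AP-1 motif in 1 (7.81%) and the TCF/LEF motif in 1 (3.73%). A match describes these letters and shows no binding.

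Across both arms, 4 mice with polypoid tissue were set against 4 with inflamed tissue, to ask which matrix genes differ between polyps and inflamed mucosa of the same model. Col17a1, the transmembrane collagen of hemidesmosomes that anchors basal epithelial cells, rose 8.74-fold in polypoid tissue, and Col7a1, the collagen of anchoring fibrils beneath the basement membrane, rose 1.78-fold. These were the only members called by limma at an adjusted p (Benjamini-Hochberg over all genes) under 0.05. They are 2 of 43, or 4.65%, against 5.94% of all genes tested (3.97% higher and 1.97% lower). No fibrillar collagen, basement membrane collagen, lysyl oxidase or prolyl 4-hydroxylase passed.

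At an unadjusted p under 0.05 there were 10 of 43 members (23.3%, against 23.2% of all genes). The difference was positive for 21 of 43 members (48.8%, against 47.3% of all genes). The class medians were -0.12 for fibrillar, -0.01 for basement membrane and -0.02 for other collagens, 0.07 for the 5 lysyl oxidases and 0.34 for the 2 prolyl 4-hydroxylases tested, beside -0.02 over all genes. The tissues did not overlap for Col17a1, Col7a1 and P4ha2 (higher in polypoid mice) and for Col27a1 (lower), 9.30% of members against 16.3% of all genes (8.37% higher and 7.91% lower).

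**Figure D1:**
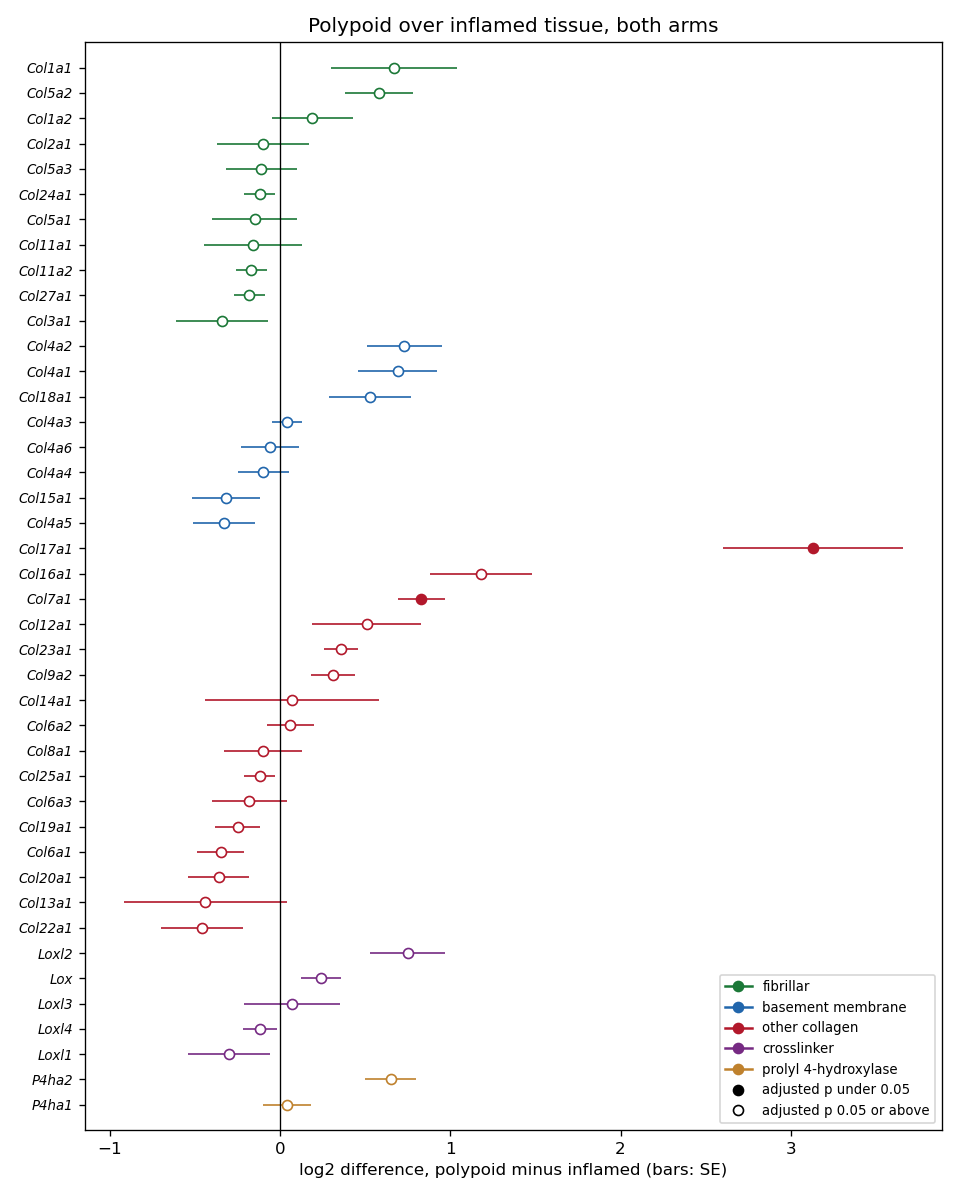
Difference between polypoid and inflamed tissue over both arms for 42 members (Col4a3bp left out), as log2 with bars of 1 SE, coloured by class; filled points have a limma adjusted p under 0.05. Col17a1 (3.13) and Col7a1 (0.83) are the filled points, and most other genes lie within 0.5 of 0.

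Col17a1 stood at 0.56 and 0.15 in untreated inflamed and at 0.21 and 0.36 in 5-ASA inflamed mice. It stood at 2.26 and 4.69 in untreated polypoid and at 3.85 and 2.99 in 5-ASA polypoid mice. The inflamed mice lay close together and below every polypoid mouse, and the spread was widest in untreated polypoid tissue. The difference was 3.13 ± 0.53 SE (95% interval 1.83 to 4.43, limma adjusted p = 0.029, n = 4 and 4). The probe was above background on all 8 polypoid arrays and on 6 of 7 inflamed arrays, and in the reference channel on 12 of 15. Within scan session 3, the only session with both tissues, the difference was 3.69. Unless stated otherwise, session 3 differences between tissues set the mean of both polypoid mice, untreated and 5-ASA, against the untreated inflamed mouse. For Col17a1 the untreated polypoid mouse alone differed by 4.54. With the session as a block, which leaves 1 residual degree of freedom, the tissue difference was 3.87 (limma adjusted p = 0.37). The size was alike in the untreated arm (3.12, limma adjusted p = 0.20) and in the 5-ASA arm (3.13, limma adjusted p = 0.088), and in neither was it called. The 5-ASA arm passed with the scanner software's processed signals (3.93, limma adjusted p = 0.040) and when untreated polypoid replicate 1 or 2 was left out (3.13, limma adjusted p = 0.018 each time), while the untreated difference ran from 1.90 to 4.34 when 1 mouse was left out. The processed signals gave 3.85 over both arms (limma adjusted p = 0.010). A second Col17a1 probe was above background on 1 of 7 inflamed and 7 of 8 polypoid arrays, so its inflamed values carry no measured level. Its reference channel was above background on 1 of 15 arrays, which limits its polypoid ratios too. This probe stood at 0.10 and 0.73 in untreated polypoid and at 0.94 and 0.38 in 5-ASA polypoid mice. The tissues differed by 0.47 ± 0.19 on it (limma adjusted p = 0.22). On the brightest probe, leaving out 1 mouse kept the size between 2.52 and 3.74, but the call held only without untreated polypoid replicate 1 or 2. Without each of the other 6 mice the adjusted p was 0.065 to 0.13.

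Squamous epithelium is rich in hemidesmosomes, so its markers were read beside Col17a1, in a list of 12 drawn up after the call was seen. Of its 10 genes tested, 0 were called and the median difference was 0.04 (limma; 3 of the 10 had an unadjusted p under 0.05). Krt14, a basal keratin, was -0.39 to 0.17 in inflamed and 0.60 to 2.80 in polypoid mice (difference 1.75, limma adjusted p = 0.087), and Krt15 differed by 1 (limma adjusted p = 0.083). Krt5, the basal partner of Krt14, differed by -0.28 (limma adjusted p = 0.21), Trp63, the basal cell factor, by 0.04, and Krt6a by -0.66, with its highest value in untreated inflamed replicate 2 (3.27). Untreated polypoid replicate 2, the highest mouse for Col17a1, was also the highest for Krt14 (2.80) and for Krt13 (2.26, against 0.38 to 0.87 in the other mice). The other tested genes of the list peaked in other mice, such as Krt15 in 5-ASA polypoid replicate 2 (0.82) and Lor in untreated inflamed replicate 1 (1.03). Trp63 was lowest in untreated polypoid replicate 2 (-0.79). The mean of the 10 genes was -0.01 to 0.39 in inflamed and 0.15 to 0.62 in polypoid mice. Krt4 was above background on 2 of 7 inflamed and 2 of 8 polypoid arrays, and Ivl on 2 and 4. The partners of Col17a1 in the hemidesmosome (Itga6, Itgb4, Dst, Plec, Cd151) had a median of -0.20 and 0 of 5 called by limma, with 2 at an unadjusted p under 0.05. The part of squamous cells in the Col17a1 result was not tested.

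Col7a1 stood at -1.01 and -0.92 in untreated inflamed and at -1.63 and -1.35 in 5-ASA inflamed mice. In polypoid tissue it stood at -0.79 and -0.31 without and at -0.18 and -0.31 with 5-ASA. Every polypoid mouse lay above every inflamed mouse, with untreated polypoid replicate 1 (-0.79) nearest to the inflamed range (highest -0.92). The difference was 0.83 ± 0.14 (interval 0.49 to 1.17, limma adjusted p = 0.029), with 0.61 within session 3 and 0.93 with the session as a block (limma adjusted p = 0.36). In the untreated arm alone it was 0.41 (limma adjusted p = 0.46), and in the 5-ASA arm alone it was 1.25 ± 0.20 (2.37-fold, limma adjusted p = 0.037). Leaving out 1 mouse kept the difference over both arms between 0.71 and 0.95. The call held only without untreated polypoid replicate 1 (limma adjusted p = 0.022), and without each of the other 7 mice the adjusted p was 0.055 to 0.12. In the deposited value table the difference was 0.75 (limma adjusted p = 0.056).

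**Figure D2:**
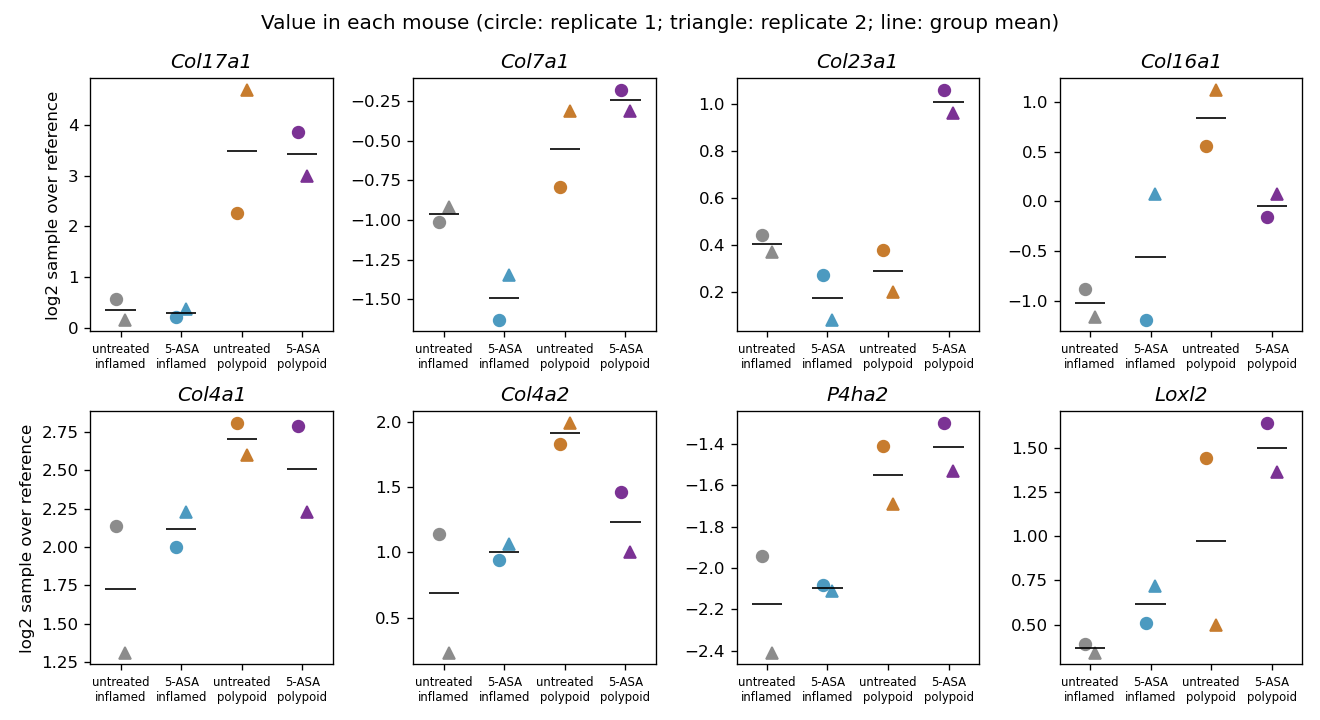
Log2 sample over reference in each mouse (circle: replicate 1; triangle: replicate 2; line: group mean) for 8 genes, each panel on its own scale. Col17a1, Col7a1 and P4ha2 separate the polypoid from the inflamed mice, Col23a1 is high only in the 2 mice with 5-ASA and polypoid tissue, and the other panels overlap.

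Within the arms, 5-ASA tissue gave 2 calls among the 43 members (4.65%, against 3.06% of all genes, 2.04% higher): Col7a1, above, and Col23a1, a transmembrane collagen. Col23a1 stood at 0.44 and 0.37 in untreated inflamed, 0.27 and 0.08 in 5-ASA inflamed, 0.38 and 0.20 in untreated polypoid and 1.06 and 0.96 in 5-ASA polypoid mice. Both 5-ASA polypoid mice lay above all 6 other mice. It rose 1.78-fold in polypoid over inflamed tissue of the 5-ASA arm (0.83 ± 0.14, limma adjusted p = 0.041), while over both arms the difference was 0.36 (limma adjusted p = 0.095). A second Col23a1 probe was 0.15 and 0.03 in 5-ASA inflamed, 0.30 and 0.26 in 5-ASA polypoid and 0.02 to 0.21 in untreated mice. The 5-ASA polypoid mice were the highest on it too, with a difference of 0.19 ± 0.12 in the 5-ASA arm (limma adjusted p = 0.51). With the scanner software's processed signals the first probe differed by 1.43 (limma adjusted p = 0.071). In the deposited value table the 5-ASA arm differed by 0.71 (limma adjusted p = 0.10). Leaving out a mouse that is in neither group, untreated polypoid replicate 1 or 2, kept both calls (Col23a1 limma adjusted p = 0.047, Col7a1 0.027). Without either untreated inflamed mouse both missed (0.058). Without a mouse of the 5-ASA groups the adjusted p was 0.16 to 0.19 for Col23a1 and 0.11 to 0.23 for Col7a1, while all-gene counts also fell, from 651 to 0 to 48. At an unadjusted p under 0.05 the 5-ASA arm had 7 members (16.3%, against 19.1% of all genes). In untreated mice limma called 0 of 43 members, against 0.164% of all genes. There, 9 members had an unadjusted p under 0.05 (20.9%, against 12.6% of all genes), and the smallest adjusted p was 0.18, for Col16a1.

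Among the fibrillar collagens, Col1a1 and Col1a2 are the chains of type I collagen, and their ratios are limited by the saturated reference channel. On 1 untreated polypoid array the sample channel was saturated as well for Col1a1, Col1a2 and Col3a1. Col1a1 was -2.10 and -1.78 in untreated inflamed, -2.23 and -1.52 in 5-ASA inflamed, -0.59 and -1.61 in untreated polypoid and -0.76 and -1.99 in 5-ASA polypoid mice. The 2 high values were the mice of scan session 2, and within session 3 the difference was -0.02, against 0.67 ± 0.37 over all mice (limma adjusted p = 0.34). The other Col1a1 probes, with no saturated array, differed by 0.33 and -0.10, and none of the 3 passed. Col1a2 was -1.35 and -1.41 in untreated inflamed, -1.39 and -0.78 in 5-ASA inflamed, -0.53 and -0.96 in untreated polypoid and -0.93 and -1.76 in 5-ASA polypoid mice, a difference of 0.19 ± 0.24.

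Col3a1, the chain of type III collagen that runs beside type I in soft tissue, was 0 and 0.19 in untreated inflamed, 0.19 and 0.28 in 5-ASA inflamed, 0.24 and -0.80 in untreated polypoid and 0.26 and -0.41 in 5-ASA polypoid mice. The 2 low values were the polypoid mice of session 3, and the difference was -0.34 ± 0.27 (limma adjusted p = 0.50). Col5a2, a chain of type V collagen, which starts and limits type I fibrils, had the smallest p of the class. It was -1.50 and -1.55 in untreated inflamed, -1.46 and -0.90 in 5-ASA inflamed, -0.46 and -1.13 in untreated polypoid and -0.84 and -0.67 in 5-ASA polypoid mice. The tissues overlapped through 5-ASA inflamed replicate 2 and untreated polypoid replicate 2, and the difference was 0.58 ± 0.20 (limma adjusted p = 0.15, 0.65 within session 3).

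The other type V chains did not follow Col5a2. Col5a1 was -1.25 and -0.71 in untreated inflamed, -0.95 and -0.20 in 5-ASA inflamed, -0.60 and -1.28 in untreated polypoid and -0.74 and -1.09 in 5-ASA polypoid mice (difference -0.15 ± 0.25). Col5a3 was 1.33 and 1.61, 2.19 and 1.73, 1.84 and 1.07 and 1.69 and 1.80 in the same order of groups (-0.11 ± 0.21). The ranges of the tissues overlapped for both.

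Small differences with little spread were seen for 2 fibrillar chains of low variation. Col27a1, a cartilage fibril collagen, was 0.31 and 0.25 in untreated inflamed, 0.26 and 0.14 in 5-ASA inflamed, 0.09 and -0.04 in untreated polypoid and 0.07 and 0.11 in 5-ASA polypoid mice. All polypoid mice lay below all inflamed mice, by -0.18 ± 0.09 (limma adjusted p = 0.29), while its other tested probe differed by 0.33 in the opposite direction. Col11a2, another cartilage chain, was 0.01 and -0.02, -0.06 and -0.25, -0.21 and -0.25 and -0.27 and -0.25 in the same order of groups (-0.17 ± 0.09). The remaining fibrillar genes, Col2a1, Col11a1 and Col24a1, differed by -0.16 to -0.10. A second Col2a1 probe, above background on all 15 arrays, was 0.65 and 0.34 in untreated inflamed, 0.15 and 0.10 in 5-ASA inflamed, -0.18 and -0.03 in untreated polypoid and -0.21 and -0.29 in 5-ASA polypoid mice. On it every polypoid mouse lay below every inflamed mouse, by -0.48 ± 0.11 (limma adjusted p = 0.061 over 30169 probes).

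Basement membrane collagens split by chain. Col4a1 and Col4a2, which make the common type IV network, had positive differences, and the restricted chains Col4a3 to Col4a6 lay between -0.33 and 0.04. Col4a1 was 2.14 and 1.31 in untreated inflamed, 2 and 2.23 in 5-ASA inflamed, 2.81 and 2.60 in untreated polypoid and 2.79 and 2.23 in 5-ASA polypoid mice. Col4a2 was 1.14 and 0.23, 0.94 and 1.06, 1.83 and 1.99 and 1.46 and 1 in the same order of groups. For both genes untreated inflamed replicate 2 was lowest, the untreated polypoid mice were high, and 5-ASA polypoid replicate 2 lay within the inflamed range.

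The difference was 0.69 ± 0.23 for Col4a1 (interval 0.14 to 1.23, limma adjusted p = 0.14) and 0.73 ± 0.22 for Col4a2 (interval 0.18 to 1.27, limma adjusted p = 0.12). Neither was called. In untreated mice it was larger (0.98 and 1.22, limma adjusted p = 0.30 and 0.23), and within session 3 it was 1.1 and 1.26. When 1 mouse was left out, the Col4a2 difference ran from 0.50 to 0.95 with adjusted p-values up to 0.32. It passed in 1 of 8 such fits, without untreated inflamed replicate 1 (limma adjusted p = 0.044), where the lowest mouse alone stood for its group. The second probes differed by 0.45 (Col4a1) and 0.19 (Col4a2). These are the head-to-head genes whose overlapping promoter windows are printed above.

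Col18a1, a heparan sulfate collagen of basement membranes and the source of endostatin, was -0.62 and -0.42 in untreated inflamed, -0.81 and 0.21 in 5-ASA inflamed, 0.65 and 0.18 in untreated polypoid and -0.21 and -0.12 in 5-ASA polypoid mice. Only 5-ASA inflamed replicate 2 (0.21) reached into the polypoid range, and the difference was 0.53 ± 0.24 (limma adjusted p = 0.26), with 0.82 by its second probe. Col15a1, its relative at the vessel and muscle border, was 0.41 and -0.25, 0.43 and 0.25, 0.42 and -0.16 and -0.25 and -0.44 in the same order of groups (-0.32 ± 0.20), with both tissues spread over the same range.

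Col4a6, a chain of epithelial and smooth muscle basement membranes, depended on the probe. By its brightest probe it was 0.16 and 0.59 in untreated inflamed, 0.26 and 0.19 in 5-ASA inflamed, 0.77 and 0.23 in untreated polypoid and 0.12 and -0.14 in 5-ASA polypoid mice (-0.06 ± 0.17), and a second probe differed by -0.05. Another probe, which carries a different accession, was -1.22 and -1.86, -1.67 and -1.39, -2.65 and -3.25 and -3.14 and -3.35 in the same order of groups. Every polypoid mouse lay below every inflamed mouse on it, by -1.56 ± 0.21 (limma adjusted p = 0.018 over 30169 probes). Leaving out 1 mouse kept it between -1.72 and -1.40, and it stayed under the threshold in 4 of 8 such fits (highest adjusted p 0.081). This probe was chosen for mention after its value was seen. What sets the probes apart was not tested.

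**Figure D3:**
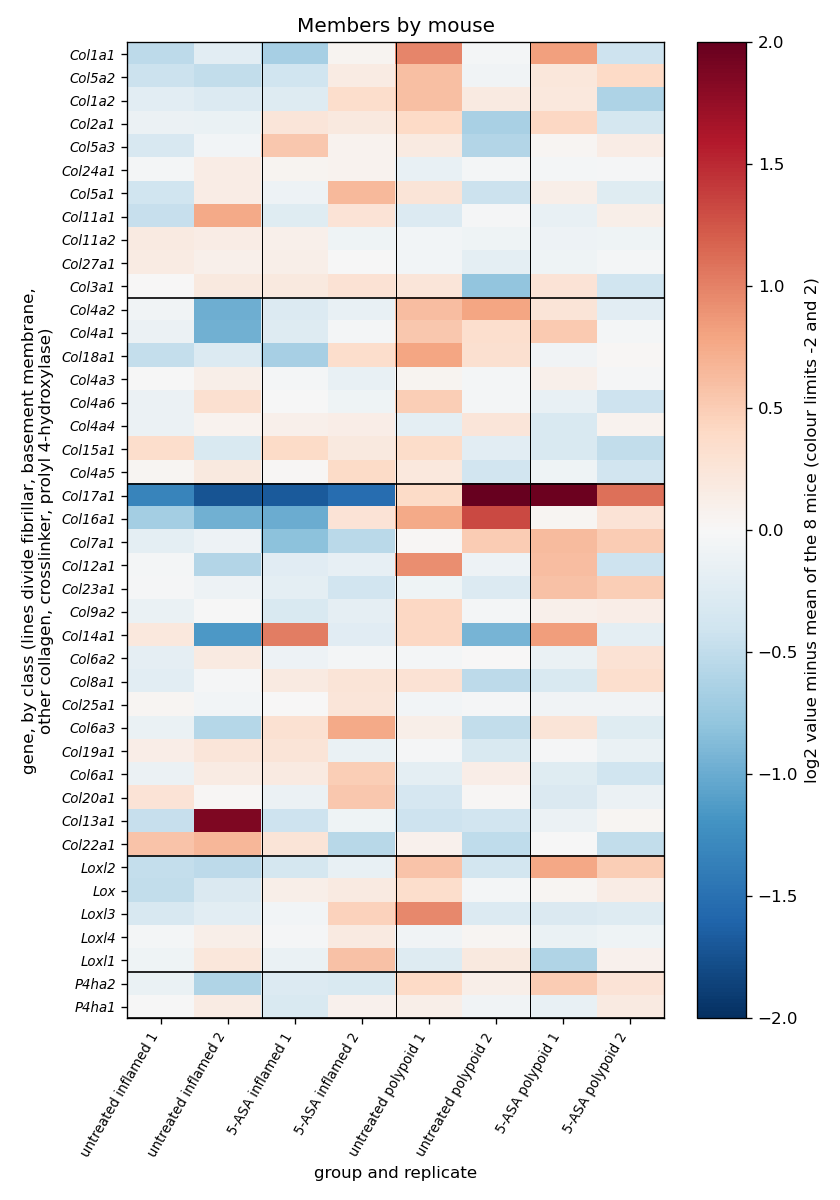
Log2 value of each mouse minus the mean of the 8 mice, by gene (42 members, grouped by class) and by mouse, with colour limits at -2 and 2. Red marks a value above and blue one below the gene's mean; the Col17a1 row divides by tissue, and most rows have pale colours with single mice apart, such as untreated inflamed replicate 2 for Col13a1.

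Of the remaining collagens, Col16a1, a fibril-associated collagen made by fibroblasts and smooth muscle, had the next largest difference after Col17a1. It was -0.88 and -1.16 in untreated inflamed, -1.19 and 0.07 in 5-ASA inflamed, 0.56 and 1.12 in untreated polypoid and -0.16 and 0.07 in 5-ASA polypoid mice. The overlap came from 5-ASA inflamed replicate 2, the mouse with 1 array. The difference was 1.18 ± 0.30 (2.27-fold, limma adjusted p = 0.076, 1.75 within session 3), and without that mouse it was 1.5 (limma adjusted p = 0.044). In the other 7 fits that left out 1 mouse it missed, with values down to 0.87 and adjusted p-values up to 0.19. In untreated mice it was 1.86 ± 0.42 (limma adjusted p = 0.18).

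The type VI chains, which form beaded filaments around cells, gave no call. Col6a1 was -0.72 and -0.43 in untreated inflamed, -0.42 and -0.10 in 5-ASA inflamed, -0.79 and -0.47 in untreated polypoid and -0.83 and -1 in 5-ASA polypoid mice, a difference of -0.35 ± 0.14 (limma adjusted p = 0.20). Col6a2 was -0.47 and -0.11, -0.39 and -0.34, -0.34 and -0.28 and -0.43 and 0 in the same order of groups (0.06 ± 0.14). Col6a3 was -0.62 and -1.06, -0.18 and 0.26, -0.37 and -0.99 and -0.23 and -0.74 in that order (-0.18 ± 0.22). A second Col6a2 probe differed by -0.06 ± 0.09, so the sign for that chain depended on the probe. The tissues overlapped for each chain of this trimer.

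Col22a1, a collagen of tissue junctions such as muscle and tendon, was 1.63 and 1.73 in untreated inflamed, 1.32 and 0.52 in 5-ASA inflamed, 1.15 and 0.56 in untreated polypoid and 1.06 and 0.57 in 5-ASA polypoid mice. Both untreated inflamed mice were above all others, and the difference was -0.46 ± 0.24 (limma adjusted p = 0.31). A second Col22a1 probe, above background on all 15 arrays, did not show this order. It stood at -0.17 and 0.19 in untreated inflamed mice, and the tissues differed by 0.01 ± 0.11 on it. The other 8 genes of the class differed by -0.44 (Col13a1) to 0.51 (Col12a1), with limma adjusted p-values of 0.22 to 0.96. Col13a1 stood at 3.08 in untreated inflamed replicate 2 and at 0.75 to 1.25 in the other mice. It was called (-1.03, limma adjusted p = 0.029) in the fit without untreated inflamed replicate 1, where that mouse alone stood for its group.

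Among the lysyl oxidases, Loxl2, which crosslinks type IV collagen, had the largest difference. It was 0.39 and 0.34 in untreated inflamed, 0.51 and 0.72 in 5-ASA inflamed, 1.44 and 0.50 in untreated polypoid and 1.64 and 1.36 in 5-ASA polypoid mice. Untreated polypoid replicate 2 (0.50) lay within the inflamed range and the other polypoid mice above it. The difference was 0.75 ± 0.22 (limma adjusted p = 0.11), and it passed in 1 of 8 fits that left out 1 mouse, the one without that mouse (0.99, limma adjusted p = 0.034). The lowest difference in these fits was 0.51, and the highest adjusted p 0.30. A second Loxl2 probe differed by 0.02.

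Lox, the enzyme that crosslinks fibrillar collagen and elastin, was -5.50 and -5.31 in untreated inflamed, -4.89 and -4.84 in 5-ASA inflamed, -4.67 and -5.06 in untreated polypoid and -4.98 and -4.86 in 5-ASA polypoid mice. The untreated inflamed mice were lowest, and the difference over both arms was 0.24 ± 0.12 (limma adjusted p = 0.30). Loxl1, which acts on elastin, was -0.76 and -0.46, -0.81 and -0.10, -0.93 and -0.49 and -1.28 and -0.60 in the same order of groups (-0.30 ± 0.24).

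Loxl3 and Loxl4, the remaining family members, overlapped between the tissues. Loxl3 was -0.69 and -0.58 in untreated inflamed, -0.42 and 0.09 in 5-ASA inflamed, 0.59 and -0.64 in untreated polypoid and -0.66 and -0.62 in 5-ASA polypoid mice (0.07 ± 0.28). Loxl4 was -0.21 and -0.05, -0.19 and 0.02, -0.23 and -0.12 and -0.30 and -0.25 in the same order of groups (-0.12 ± 0.10).

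P4ha2, a catalytic subunit of prolyl 4-hydroxylase, separated the tissues without passing. It was -1.94 and -2.41 in untreated inflamed, -2.08 and -2.11 in 5-ASA inflamed, -1.41 and -1.69 in untreated polypoid and -1.30 and -1.53 in 5-ASA polypoid mice. All polypoid mice lay above all inflamed mice, by 0.65 ± 0.15 (1.57-fold, limma adjusted p = 0.057), with 0.63 in untreated and 0.68 in 5-ASA mice and 0.80 within session 3. When 1 mouse was left out, it passed in 1 of 8 fits, without untreated inflamed replicate 1 (0.77, limma adjusted p = 0.045), and the lowest difference was 0.53 and the highest adjusted p 0.19. P4ha1, the more widespread subunit, was -1.20 and -1.02, -1.50 and -1.11, -1.08 and -1.26 and -1.34 and -1.01 in the same order of groups (0.04 ± 0.14), with no separation.

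Genes that act on or beside collagen were read from lists drawn up for this purpose. Of 19 collagen processing genes tested by limma, 1 rose and 1 fell (median 0.03), with 6 at an unadjusted p under 0.05. Of all genes 3.97% rose, 1.97% fell and 23.2% had such a p. Bmp1, the protease that removes the C-propeptide of fibrillar procollagen, was -0.94 to -0.57 in inflamed and -0.15 to 0.04 in polypoid mice and rose (0.71 ± 0.11, limma adjusted p = 0.024). Its enhancer Pcolce was -1.45 to -1.16 in inflamed and -2.45 to -1.81 in polypoid mice and fell (-0.88 ± 0.12, limma adjusted p = 0.016). Neither gene overlapped between the tissues. Of the 15 genes of proteoglycans and other matrix proteins, 2 fell by limma, with 5 at an unadjusted p under 0.05. Postn, a matricellular protein of fibroblasts that binds collagen, was -1.02 to -0.16 in inflamed and -3.49 to -1.54 in polypoid mice (-2.16 ± 0.42, limma adjusted p = 0.041). Fbln2, an elastic fibre and basement membrane protein, was -3.35 to -2.79 and -4.06 to -3.55 (-0.84 ± 0.16, limma adjusted p = 0.042). Both missed in the deposited value table (limma adjusted p = 0.052 and 0.094). None of that list rose, 10 of its differences were negative and 5 positive, and its median was -0.05. Lum (-1.75, limma adjusted p = 0.12) and Fbln1 (-1.38, limma adjusted p = 0.051) were not called.

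Among 14 basement membrane partners tested by limma, 2 rose and 11 had positive differences (median 0.46), with 8 at an unadjusted p under 0.05. Of all genes 3.97% rose, 47.3% had positive differences (median -0.02) and 23.2% had such a p. Lama5, the laminin alpha chain under colon epithelium, was -1.75 to -0.65 in inflamed and 0.14 to 1.24 in polypoid mice and rose 4.30-fold (2.10 ± 0.22, limma adjusted p = 0.010). The 4 polypoid mice lay above the 4 inflamed mice. Of 6 collagen receptors tested by limma, 0 were called, with 4 at an unadjusted p under 0.05 and Ddr1, a collagen-binding kinase, nearest (0.92, limma adjusted p = 0.070). Left out 1 mouse at a time, Lama5 stayed called in 7 of 8 fits (0.053 without 5-ASA inflamed replicate 1), Pcolce in 5, Bmp1 in 3, Postn in 2 and Fbln2 in 1. Of the cell markers named earlier, S100a8 and S100a9 stayed called in 8, Sox9 in 7, Lmod1 in 5, Dpep1 in 3, Tagln and Myl9 in 2 and Cnn1 in 1, and Cnn1 missed in the deposited value table (limma adjusted p = 0.057). With the session as a block, none of these supporting genes was called (limma adjusted p = 0.33 to 0.61).

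The comparison of 5-ASA with untreated mice asked whether the drug went with a change in these genes. By limma 0 of 43 members and 0 of all genes were called in both tissues together, in polypoid tissue, in inflamed tissue and for the difference of the effect between tissues (percent called 0 in each). At an unadjusted p under 0.05 there were 2 members over both tissues (4.65%, against 6.39% of all genes), 2 in polypoid tissue (4.65%, against 7.77%), 3 in inflamed tissue (6.98%, against 4.38%) and 3 for the difference (6.98%, against 5.98%). No member separated all 4 treated from all 4 untreated mice, against 1.73% of all genes. Treated and untreated mice did not overlap for 13 members in polypoid tissue (30.2%, against 40.5% of all genes) and for 17 in inflamed tissue (39.5%, against 29.4%), where only 2 mice face 2. With 2 mice in each group, the intervals are wide. For Col17a1, for example, the 5-ASA difference over both tissues was -0.06 with an interval of -1.36 to 1.24. The comparisons below share mice, so their values are not independent of each other or of the tissue comparison.

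**Figure D4:**
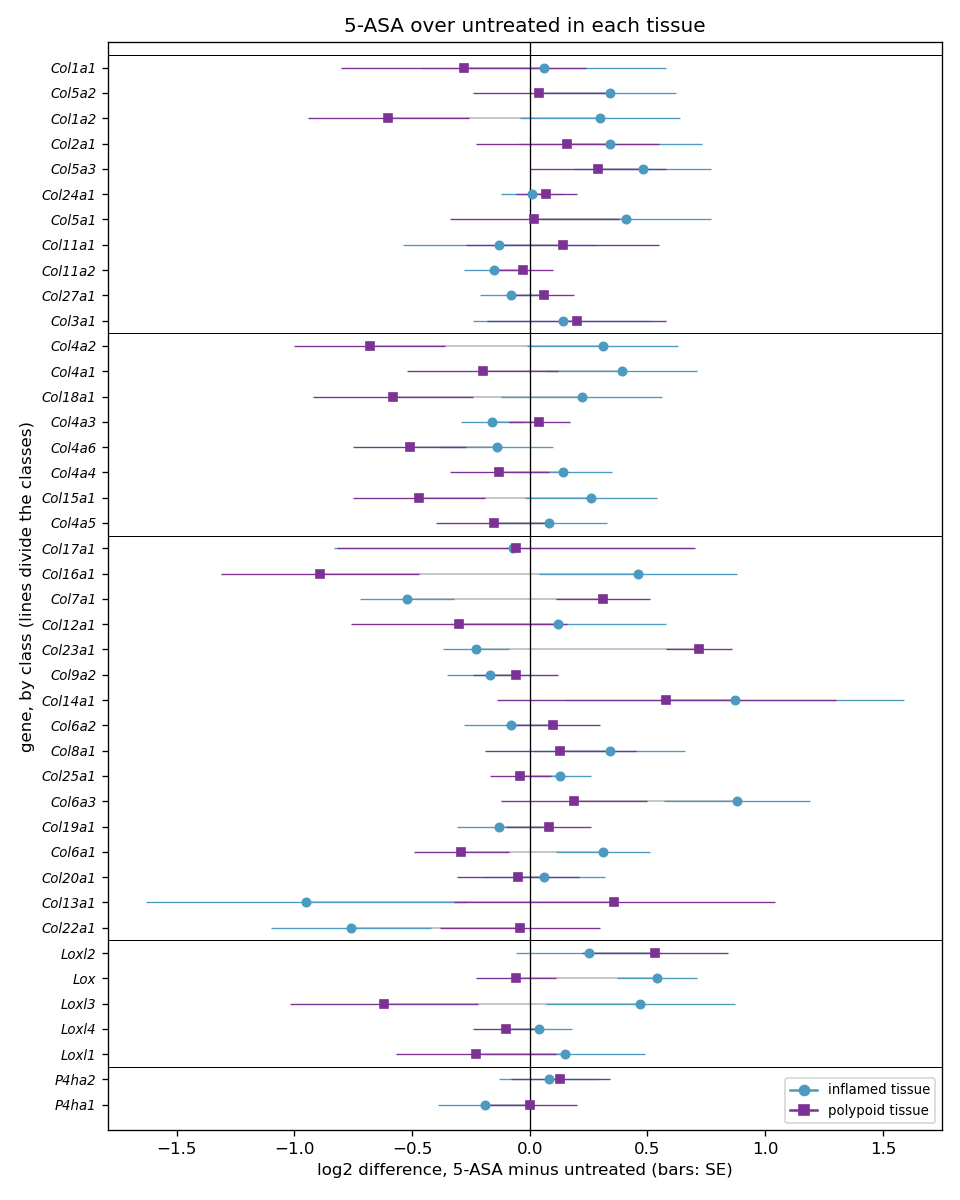
Difference between 5-ASA and untreated mice in inflamed (circles) and polypoid (squares) tissue for 42 members, as log2 with bars of 1 SE; lines divide the classes. Col23a1 (0.72) stands to the right in polypoid tissue, and 7 of 8 basement membrane squares lie left of 0.

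Col23a1 had the smallest p in polypoid tissue, where the 5-ASA mice exceeded the untreated mice by 0.72 ± 0.14 (limma adjusted p = 0.44), with 0.68 within session 2 and 0.76 within session 3. In inflamed tissue it differed by -0.23, and the effects differed by 0.95 ± 0.20 (limma adjusted p = 0.80). Col7a1 showed the same order of signs, -0.52 in inflamed and 0.31 in polypoid tissue, with a difference of 0.83 ± 0.28 (limma adjusted p = 0.80). In inflamed tissue its 5-ASA mice lay below its untreated mice, -0.62 within session 1.

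Col6a3 differed by 0.54 ± 0.22 over both tissues (limma adjusted p = 0.78), with 0.88 in inflamed tissue (0.45 within session 1) and 0.19 in polypoid tissue. Lox differed by 0.54 ± 0.17 in inflamed tissue (limma adjusted p = 0.98, 0.61 within session 1) and by -0.06 in polypoid tissue. All 5 lysyl oxidases had positive differences in inflamed tissue (47.2% of all genes did), with a median of 0.25 and of 0.12 within session 1. Within that session Loxl1 was negative (-0.06) and Loxl4 stood at 0.02, so the shared sign did not hold there. In polypoid tissue 4 of 5 were negative (51.9% of all genes were positive), with a median of -0.10. The smooth muscle markers moved with 5-ASA too: all 12 had negative differences in inflamed tissue, with a median of -0.95 and 0 called by limma. Within session 1 their median was -1.9. Their mean was 2.60 and 1.60 in untreated and 0.82 and 1.23 in 5-ASA inflamed mice, highest in untreated inflamed replicate 1. The part of these markers in the values above was not tested.

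By class, the basement membrane collagens had a median of -0.33 in polypoid tissue, where 7 of 8 were negative (51.9% of all genes were positive), with -0.34 in session 2 and -0.29 in session 3, beside 0.01 over all genes. In the same comparison all 10 epithelial markers were negative (median -0.49, with -0.25 in session 2 and -0.63 in session 3), as were 10 of 12 fibroblast markers (median -0.30) and 13 of 15 matrix genes (median -0.20), with 0 called by limma and 4, 1 and 0 at an unadjusted p under 0.05. Their part in the basement membrane values was not tested. Named members were Col4a2 (-0.68 ± 0.32), Col18a1 (-0.58 ± 0.34), Col4a6 (-0.51 ± 0.24), Col15a1 (-0.47 ± 0.28) and Col4a1 (-0.20 ± 0.32), with limma adjusted p-values of 0.68 to 0.97. In inflamed tissue 6 of 8 were positive (47.2% of all genes) with a median of 0.18, which was -0.03 within session 1. Left out 1 mouse at a time, the median in polypoid tissue was -0.52 without untreated polypoid replicate 2, -0.51 without 5-ASA polypoid replicate 1 and -0.21 without untreated polypoid replicate 1. The medians of fibrillar collagens were 0.06 in polypoid and 0.14 in inflamed tissue, those of other collagens 0.02 and 0, and neither class had a call.

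Col1a1 differed by -0.28 ± 0.52 with 5-ASA in polypoid and 0.06 ± 0.52 in inflamed tissue, Col1a2 by -0.60 ± 0.34 and 0.30 ± 0.34, and Col3a1 by 0.20 ± 0.38 and 0.14 ± 0.38. Their intervals each held 0 and spanned more than a 2-fold range, so the data set no narrow bound on an effect of the drug on the main fibril chains.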

How the data were processed

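Each of 15 arrays carried 1 mouse's amplified RNA against reference RNA, with dyes swapped between a mouse's arrays where it had more than 1 (5-ASA inflamed replicate 2 had 1 array). Per the file headers, the authors' deposited scanner files hold spot and local background intensity values from Agilent Feature Extraction 9.1.1.1. The authors' deposited value table holds log2 ratios of sample over reference; its normalization is not given in the sources used here, and it served as an alternative.

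Intensities were corrected by normexp (offset 50) and loess within arrays, using limma 3.58.1 (R 4.3.3). Ratios were turned to sample over reference, and a fit of animal plus dye gave 1 value per mouse. A probe was kept if some group had it well above background in the sample channel on all of its arrays, and the brightest kept probe stood for its gene. Of 41174 probes, 22864 were named by accession and 10230 by gene name, and 8080 kept the array's name; the collagen genes were matched on the array's name.

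The 4 groups were fitted together (limma lmFit and eBayes, residual degrees of freedom 4, prior 2.14, Benjamini-Hochberg over 21303 genes). The code was tested on simulated data. The alternatives were the scanner software's processed signals, the deposited table, median centring, Aquantile, no filter, every probe, no dye term, replicate and session blocks, and leaving out each mouse. Same-numbered mice of different groups had correlated deviations of 0.26, 0.33, 0.20, 0.36, 0.08 and 0.03, which did not meet the rule for pairing, over 0.1 in every pair.

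Mouse values are given for members past the threshold in any comparison, for the 3 of each class with the smallest p for tissue, for 5-ASA and for the difference of its effect, and for the main fibril and network collagens, and called members of the supporting lists are named, the matrix genes with their range over mice; 1 is not reported here. Members and lists were chosen with earlier results of these data known. The squamous and hemidesmosome lists were added after the calls were seen.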

Additional observations from a re-analysis of the deposited data

How the results depend on the processing

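Over both arms 2 members were called. The count was 3 with the scanner software's processed signals (Col16a1 in addition) and 3 with median centring (P4ha2 in addition). It was 1 in the deposited value table and 0 with the scan session as a block, which leaves 1 residual degree of freedom. Leaving out 1 mouse changed which members passed. Col17a1 stayed called only without untreated polypoid replicate 1 or 2, and Col7a1 only without untreated polypoid replicate 1. Without untreated inflamed replicate 1 both missed (3.23 and 0.81), while Col13a1 (-1.03), Col4a2 (0.95) and P4ha2 (0.77) passed. No member passed without 5-ASA inflamed replicate 1, untreated inflamed replicate 2 or either 5-ASA polypoid mouse. In the 5-ASA arm 2 members were called, with 2 under the processed signals (Col17a1 in place of Col23a1), 0 in the deposited value table, 0 with the session block and 0 to 3 when 1 mouse was left out. Over all genes the count over both arms was 1265, against 1654 with the processed signals, 967 in the deposited value table, 0 with the session block and 125 to 1325 without 1 mouse. The median of the other collagens over both arms was -0.02 and ran from -0.19 to 0.08 when 1 mouse was left out. With the replicate block, which treats the same number as a pairing, 3 members were called over both arms (P4ha2 in addition, 0.65, limma adjusted p = 0.031) and 2 in the 5-ASA arm, while the count over all genes was 1788. Aquantile leaves ratios within an array as they were, so it gave the same values. No direction of a called value reversed. What sets the session and single mice apart was not tested. The number of mice, 2 in each group, limits precision.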
